A study of Botryllus schlosseri with 42 samples.

Results

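The contig Bot_c5114 of Botryllus schlosseri is annotated as a homolog of REC8, the subunit that closes the cohesin ring in meiotic cells. It is 1 of the 50106 contigs in the deposited tables. It was chosen from its measured values, the group means of fertile and infertile animals at 7 stages, together with its annotation, so its difference between the groups and its course over the stages are given as a description with no test. Among 4967 contigs whose annotation was used here, Bot_c5114 was the 1 contig named REC8, with REC8 as the hit in human, mouse and zebrafish, an uncharacterized protein as the hit in Ciona and no hit in Drosophila. No contig was named RAD21, which takes the place of REC8 in the cohesin of dividing somatic cells.

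Cohesin is a ring of SMC1, SMC3 and a kleisin subunit that holds sister chromatids together. In meiosis of yeast, mice and many other species the kleisin is REC8, which lies along the chromosome axis with the SYCP and HORMAD proteins while SPO11 makes the breaks from which DMC1 starts recombination. Cutting of REC8 along the arms lets homologs part, and REC8 kept near the centromere holds sisters together until the following division. REC8 transcripts are therefore known as a mark of germ cells entering or passing through meiosis, in testis and ovary alike.

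B. schlosseri is a colonial ascidian whose zooids are replaced by budding in a cycle called blastogenesis, in which stages A1 to C2 precede the death of the old zooids at takeover, D. RNA of whole, laboratory-raised colonies was sequenced with polyA capture from 3 fertile libraries (Fert801, Fert841 and MixFert, labelled as hermaphrodite) and 3 infertile libraries (Infert001, Infert802 and MixInfert) at each of the 7 stages, 42 libraries in all. No treatment was given, and the mix library of each group pooled several genotypes, with SB841 both a fertile genotype and a part of the infertile mix. The deposited values are group means, from which the read pairs of each library were recovered. The recovered libraries carry no genotype name and are numbered 1 to 3 by falling size factor within each group and stage, so a number does not follow a genotype from stage to stage. Values are normalized counts unless a scale is given. In whole colonies, more cells of a type and more RNA per cell cannot be told apart.

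The contigs with recovered values held from 2778721 to 9885528 read pairs a library, and the lowest of these was fertile library 3 at C1. Sperm and yolk markers followed the labels in most libraries, and a few libraries stood apart. The summed level of 4 germ cell markers overlapped between the groups at A2, B2, C1 and C2. The summed level of 4 spermatid and sperm markers (ODF3L2 of the sperm tail and the kinases tsk-1, tsk-6 and tsk-2, known from testis) was 572, 1389 and 2125 in infertile library 1 at B2, C1 and C2, and between 22.9 and 168 in the other infertile libraries of all stages. Fertile library 3 at A2 had a sum of 233 for these markers and of 129 for 3 oocyte and follicle markers (vitellogenin, ldlr and zp-1), against at least 3559 and 5370 in the other fertile libraries of that stage. No marker of the 3 lists was at 0 in every library of a group at any stage. Results on these libraries are given with and without them. The marker names are not exclusive. By in situ hybridization the authors also saw tsk-2 in oocytes and vitellogenin in follicle cells of the testes.

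REC8 transcripts were higher in fertile than in infertile animals by group mean at all 7 stages, from 37.4-fold at A1 to 2.39-fold at C1. The 21 fertile libraries ranged from 106 to 1989 with a median of 579, and the 21 infertile libraries from 10.2 to 293 with a median of 64.9. REC8 was detected in all 42 libraries, with between 6 and 1228 read pairs. The lowest fertile library lay above the highest infertile library of its stage at A1, A2, B1, C2 and D, and the groups overlapped at B2 and C1. Over all stages, 16 of the 21 fertile libraries lay above the highest infertile library of any stage.

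**Figure D1:**
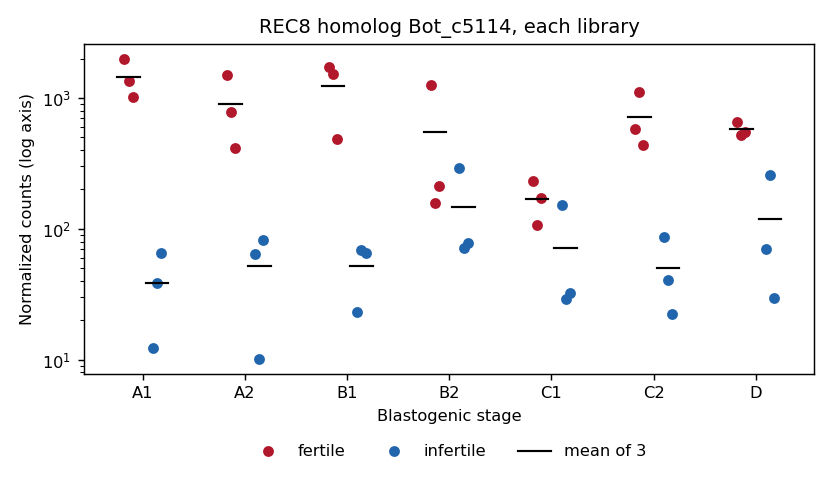
REC8 homolog Bot_c5114 in each of the 42 libraries, as normalized counts on a log axis, by stage and group, with a bar at the mean of 3 libraries. The fertile points lie above the infertile ones at 5 stages, and the groups overlap at B2 and C1, where the infertile group has 1 point at 293 and 152.

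At stage A1, when the secondary bud first appears, the fertile libraries had 1989, 1344 and 1019 normalized counts of REC8 and the infertile libraries 12.4, 38.3 and 65.8. The lowest fertile library was 15.5 times the highest infertile one. The means were 1451 ± 494 (SD, n = 3) and 38.8 ± 26.7 (SD, n = 3), a ratio of 37.4, which lay between 27.9 and 57.2 when each library was left out in turn. Of all contigs tested at A1, 7.80% had all 3 fertile libraries above all 3 infertile ones. REC8 was selected on this contrast, so nothing is read from that share.

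At A2 the fertile libraries had 1487, 787 and 416 and the infertile libraries 64.7, 10.2 and 82.0, with a ratio of means of 17.1. Fertile library 3, which had few sperm and yolk transcripts, was the lowest of its group for REC8 and still 5.07 times the highest infertile library. Without it the ratio was 21.7. At B1 the fertile libraries had 1723, 1522 and 483 and the infertile libraries 23.1, 68.3 and 64.9, a ratio of 23.8. Through these early stages no infertile library exceeded 82.0.

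Stage B2, at which the testis is first visible in the secondary bud of fertile animals, had the widest fertile spread. Fertile library 1 had 1269, whereas libraries 2 and 3 had 157 and 212, and the infertile libraries had 293, 71.8 and 77.6. Infertile library 1, which also carried sperm transcripts, lay above fertile libraries 2 and 3. The ratio of means, 3.703, therefore rested on single libraries. It was 1.25 without fertile library 1 and 7.31 without infertile library 1.

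At C1 the fertile libraries were at their lowest, with 231, 106 and 173, from 164, 44 and 40 read pairs. The infertile libraries had 152, 29.3 and 32.3, and infertile library 1 again stood above the others and overlapped the fertile group. The ratio was 2.39, and 5.54 without infertile library 1. REC8 was thus least different between the groups at the stage where fertile animals had least of it.

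At C2 REC8 was again well apart, with 579, 1113 and 438 in the fertile libraries and 86.5, 40.7 and 22.4 in the infertile ones. The ratio was 14.2, and 22.5 without infertile library 1, the library with the highest sum of sperm markers of any infertile library. At takeover the fertile libraries were close together, at 662, 523 and 553, and the infertile libraries spread over 69.7, 259 and 29.8. The ratio of 4.85 became 11.6 without infertile library 2, and this was the library with 168 in the sum of sperm markers, the highest of the infertile libraries at D.

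To compare stages, the 42 libraries were normalized together by the median of ratios. On this scale the fertile means, from the highest to the lowest, were A1 (1432 ± 484), B1 (1098 ± 590), A2 (1062 ± 639), C2 (637 ± 314), D (593 ± 75.2), B2 (564 ± 644) and C1 (175 ± 61.6), each as mean ± SD with n = 3. Every pair of neighbours in this order had overlapping libraries and differed in mean by less than the larger SD of the pair. Stages further apart in the order did separate. All fertile libraries of A1 lay above those of C2 and D, and those of A1, A2, B1, C2 and D all lay above those of C1. The fertile mean was 8.20 times as high at A1 as at C1 and 3.65 times as high at C2 as at C1.

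The infertile means on the same scale were lower and in another order, from 152 ± 129 at B2 and 120 ± 123 at D, through 71.9 ± 70.9 at C1, 61.3 ± 44.0 at A2, 44.9 ± 21.6 at B1 and 44.7 ± 29.8 at C2, to 38.2 ± 26.6 at A1. Neighbours again overlapped. The infertile libraries of B2 lay above those of A1 and B1, and the other pairs of stages overlapped. The means at B2, D and C1 each held 1 high library, with an SD about as large as the mean.

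The other genes of chromosome cohesion and meiosis were taken from a list of 26 contigs picked by annotation. The annotation sheets are ordered by the study's own test of fertile against infertile animals, so the list leans towards contigs that differ and is no independent evidence of a direction. With limma on log2(normalized count + 1) and a 10% FDR over all contigs of a stage, 9 of the 24 list contigs tested at A1 were called, all higher in fertile animals, against a background of 1.25% of 38196 contigs. At B1 it was 8 of 23, all higher, against 1.26% of 38453. These calls leaned on single libraries. Without fertile library 1 or without fertile library 2, 3 list contigs were called at A1 and 2 at B1, and at B1 4 were called without infertile library 1 and 5 without infertile library 2. Over all contigs, the fits without these fertile libraries called 236 and 269 at A1 and 205 and 245 at B1. Those without these infertile libraries called 340 and 316 at B1.

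No list contig was called by limma at A2, B2, C1, C2 or D, where the background was 0%, 0.00807%, 0%, 0% and 0.0294%. At an unadjusted p below 0.05 there were 15 of 25 list contigs at A2, with 5.99% of all contigs, and 15 of 24 at takeover, with 11.7% of all. At B2 there were 6 of 23, of which 5 were higher in fertile animals, with 3.69% of all. At C1 there were 5 of 24, with 3.86% of all, and at C2 11 of 25, with 6.64%. In 1 fit over all 42 libraries, list contigs were called at A2, C2 and D too, 10, 5 and 1 of 24. All contigs called in that fit were 407, 52 and 24 of 37832. Without fertile library 3, 4 of 25 were called at A2, all higher, with 289 of 36781 contigs in all. Without infertile library 1, 3 of 24 were called at C2, with 249 of 37881 in all. These were SPO11 and 1 SYCP3 contig, higher, and the SMC2 contig, lower in fertile animals. At D, 3 of 24 were called higher without infertile library 2, with 37 of 37230 in all. Without infertile library 3 the SMC2 contig alone was called at D, lower in fertile animals, with 657 of 37459 in all.

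Counted by separation of the libraries, the list was lowest at B2 and C1, where the groups overlapped for REC8. The share of all contigs tested was lowest at these stages too. All 3 fertile libraries lay above all 3 infertile ones for 19 of 24 list contigs at A1, where the share of all contigs tested was 7.80%. At A2 it was 16 of 25, with 6.97% of all contigs, and at B1 15 of 23, with 8.13%. The count was lower at B2, with 5 of 23 list contigs and 4.91% of all, and at C1, with 6 of 24 and 4.43%. At C2 it was 11 of 25, with 7.28% of all, and at takeover 17 of 24, with 10.9%. The reverse, all 3 fertile libraries below all 3 infertile ones, held for 1 list contig at B2 (condensin subunit 1) and 1 at C2 (cyclin B3), with 3.44% and 5.97% of all contigs. The median log2 difference of the list lay between 1.39 and 2.09 from A1 to B1. It was 0.75 at B2 and 0.65 at C1, then 0.92 at C2 and 1.43 at takeover, and that of all contigs lay between -0.01 and 0.02. As for REC8, B2 and C1 were the stages with the smallest median and the fewest separated contigs.

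**Figure D2:**
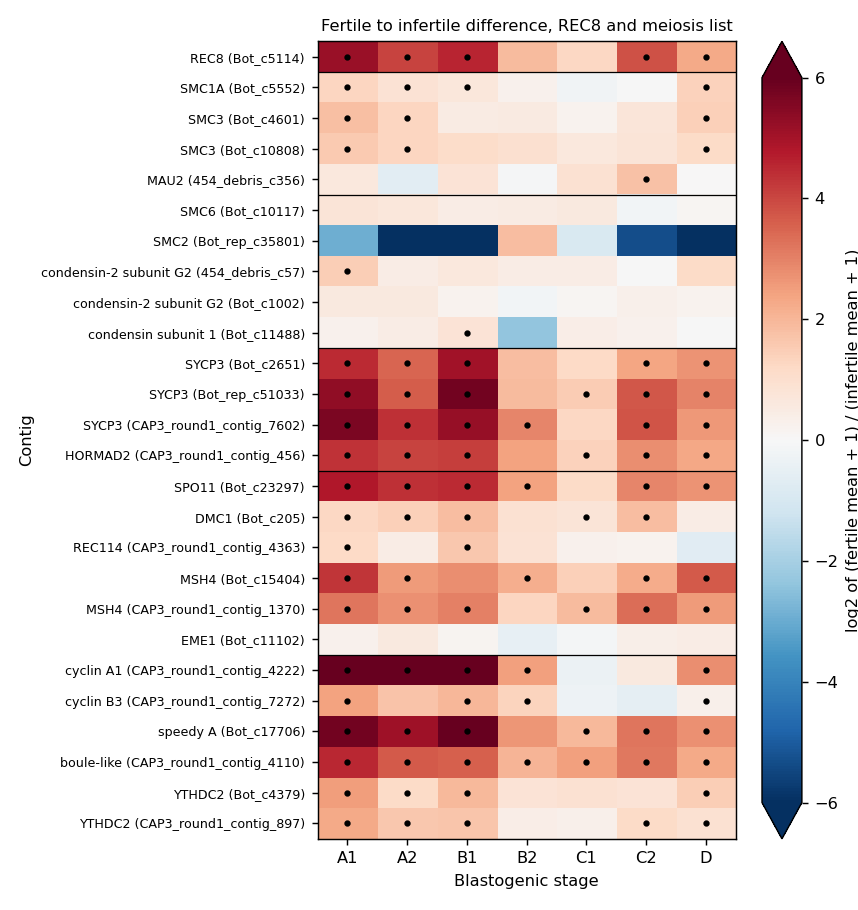
Fertile to infertile difference of REC8 and the meiosis list contigs described here at each stage, as log2 of the ratio of group means after adding 1, in colour (clipped at the ends of the scale). Lines divide REC8, cohesin, other SMC complexes, axis and synapsis, recombination, and meiotic entry and cell cycle. A dot marks stages at which all 3 fertile libraries lay above all 3 infertile ones, as for REC8 at 5 stages and boule-like at 7.

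The ring partners of REC8 had smaller ratios than REC8 at every stage. SMC1A (Bot_c5552), an SMC subunit used in mitosis and meiosis, had ratios of fertile to infertile means between 0.865 at C1 and 2.62, and no call at any stage. At A1 its fertile libraries had 147, 76.7 and 119 and its infertile libraries 40.7, 41.99 and 55.5, which do not overlap, and its log2 difference was 1.26 (SE 0.39, limma adjusted p = 0.55). The SMC3 contigs Bot_c4601 and Bot_c10808 had ratios from 1.17 to 3.62 and from 1.56 to 3.196, also with no call. SMC1A was separated at 4 stages and each SMC3 contig at 3, all of them among the stages at which REC8 was separated. MAU2, part of the complex that loads cohesin, had fertile means of at most 7.40 on the common scale and is not described further.

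The condensin and SMC6 contigs, which act in compacting chromosomes and in repair, showed little of the REC8 pattern. Of these 5 contigs, 3 were separated with fertile above infertile at no stage and 1 condensin-2 G2 contig and the condensin contig Bot_c11488 at 1 stage each. At B2 Bot_c11488 was separated the other way, with 0, 9.79 and 2.04 in the fertile libraries and 13.3, 49.1 and 10.3 in the infertile ones. None of the 5 was called with all libraries.

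Contigs of the proteins that share the chromosome axis with REC8 were among those most like it. By correlation over the 42 libraries they ranked 1, 3, 6 and 19 of 37831 contigs. Ranks 2, 4 and 5 were contigs with no meiotic name. SYCP3, the core of the lateral element of the synaptonemal complex, has 3 contigs, which may be parts of 1 gene or share reads. The contig CAP3_round1_contig_7602 had 1202, 753 and 761 in the fertile libraries at A1 and 7.07, 23.7 and 20.6 in the infertile ones, with no overlap. Its log2 difference was 5.76 (SE 0.54, limma adjusted p = 0.0081). The fertile libraries had 135, 72.6 and 65.0 of it at C1 and 352, 680 and 280 at C2, where REC8 was also back above its level at C1. HORMAD2 (CAP3_round1_contig_456), a HORMA domain protein of unsynapsed axes in mice, had 1307, 758 and 761 against 23.0, 49.3 and 63.7 at A1 and a log2 difference of 4.41 (SE 0.50, limma adjusted p = 0.016). All 4 axis contigs were called at A1 and at B1 and nowhere else.

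Among recombination genes, SPO11 (Bot_c23297), the enzyme that makes meiotic breaks, was closest to REC8 by correlation over the 42 libraries (r = 0.92, and 0.81 for DMC1), whereas within the 21 fertile libraries DMC1 was closer (0.95, and 0.86 for SPO11). At A1 it had 392, 232 and 220 in the fertile libraries and 8.84, 0 and 18.5 in the infertile ones, which do not overlap. It was called at B1, with a log2 difference of 4.70 (SE 0.81, limma adjusted p = 0.081), and at A1 its adjusted p was 0.15. MSH4 (CAP3_round1_contig_1370), which stabilizes crossover intermediates, was called at A1 and separated at 6 stages. The other MSH4 contig, Bot_c15404, was separated at 5 stages and not called. DMC1 (Bot_c205), the meiotic recombinase, had a smaller ratio, with 718, 505 and 440 in fertile and 127, 274 and 296 in infertile libraries at A1. Its ratios ran from 1.37 to 3.69 and it was not called. EME1 (Bot_c11102), part of a junction-cutting nuclease that also acts outside meiosis, had a highest ratio of 1.52 and no call. REC114 (CAP3_round1_contig_4363), named by its mouse hit, departed from REC8. It was separated at 2 stages, with ratios from 0.612 to 3.06 and no call, and r over the 42 libraries was 0.50. At D, its lowest fertile stage, it had 56.5, 47.3 and 43.8 in the fertile libraries and 156, 51.4 and 34.4 in the infertile ones.

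The genes of meiotic entry and the meiotic cell cycle differed in how far they kept to the stages of REC8. Boule-like (CAP3_round1_contig_4110), an RNA-binding protein of the DAZ family required in fly spermatocytes, was the 1 list contig with separated groups at all 7 stages. It had 1173, 625 and 586 against 14.1, 25.6 and 59.6 at A1, a log2 difference of 4.70 (SE 0.61, limma adjusted p = 0.027). Speedy A (Bot_c17706), a CDK activator that ties telomeres to the nuclear envelope in mouse meiosis, was separated at 6 stages and called at A1 and B1. Cyclin A1 (CAP3_round1_contig_4222), which mouse spermatocytes need to finish meiosis, was called at A1 and B1, with log2 differences of 6.32 (SE 0.69, limma adjusted p = 0.014) and 6.54 (SE 0.49, limma adjusted p = 0.0047). At C2, where REC8 in fertile animals had returned to between 438 and 1113, cyclin A1 had 60.3, 46.3 and 32.1 in the fertile libraries and 77.8, 7.40 and 5.59 in the infertile ones, which overlap. Cyclin B3 (CAP3_round1_contig_7272), a cyclin of meiosis in flies and mice, was called higher at A1, with a log2 difference of 2.39 (SE 0.42, limma adjusted p = 0.096). At C2 its fertile libraries had 469, 497 and 348 and its infertile libraries 595, 537 and 766, so that all fertile libraries lay below, unlike REC8, and its log2 difference was -0.53 (SE 0.34, limma adjusted p = 0.80). YTHDC2, a helicase needed for meiotic entry in mice, was separated at 4 and 5 stages in its contigs and not called.

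A test of whether the difference between fertile and infertile animals varied over the 7 stages was made for the list contigs and not for REC8. With limma, the F test of the group by stage terms over 42 libraries called 0 of the 24 list contigs at a 10% FDR, with a lowest adjusted p of 0.42 among them, and 0% of 37832 contigs in all. At an unadjusted p below 0.05 there were 7 list contigs and 734 contigs in all, 1.94% of those tested. The changes of the list from stage to stage are therefore given as values only.

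The low point of REC8 at C1 was shared by part of the list. In fertile animals, 10 of the 24 list contigs compared had their lowest mean of the 7 stages at C1, against 11.7% of 37832 contigs. The means at B1 and at C2 were both over 2 times that at C1 for 7 of the 24, namely 2 SYCP3 contigs, HORMAD2, SPO11, DMC1, speedy A and boule-like, against 1.69% of all contigs. This limit was set after the REC8 values were seen, so the counts are a description. SMC1A and the YTHDC2 contig Bot_c4379 were among the 10 but outside this limit, with ratios of C2 to C1 of 1.03 and 1.13. Neither SMC3 contig was lowest at C1, and their ratios were 0.926 and 0.975. Among the germ cell markers, vasa had 1.45 times and nanos 1.53 times as much at C2 as at C1, against 3.65 times for REC8.

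**Figure D3:**
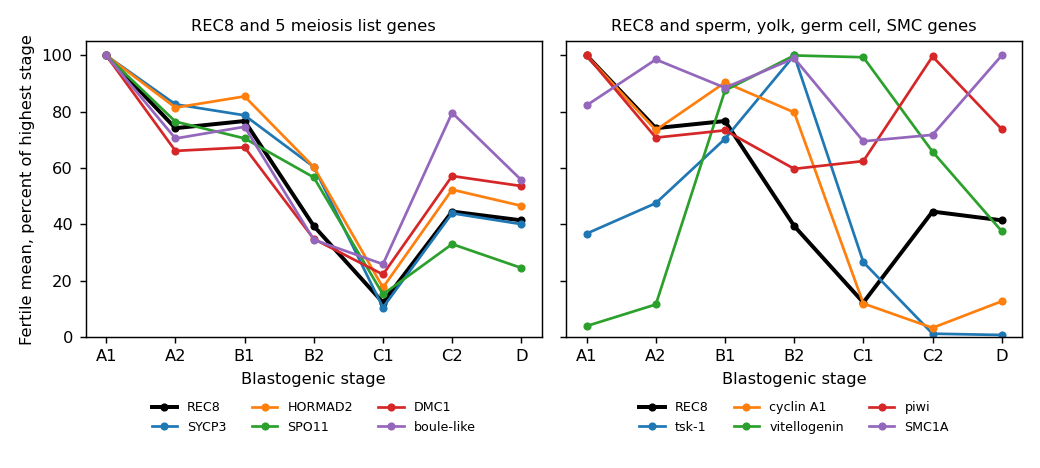
Fertile group means of 3 libraries at each stage, normalized over all 42 libraries and drawn as percent of each contig's highest stage. REC8 (black) and the 5 meiosis list genes at left are low at C1 and higher at C2, whereas at right tsk-1 and cyclin A1 stay low at C2 and D and vitellogenin is highest from B1 to C1.

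The sperm marker tsk-1 and vitellogenin took another course over the cycle than REC8 in the same fertile libraries. tsk-1 (Bot_rep_c45338), a testis-specific kinase, had a mean on the common scale of 1341 at A1 and 3654 at B2, stood at 970 at C1 and was 40.6 at C2 and 24.1 at D. Vitellogenin (CAP3_round1_contig_5534), the yolk protein, had a mean of 1770 at A1, between 40354 and 46088 from B1 to C1 and 17313 at D. The fertile mean of REC8 was highest at A1 and those of tsk-1 and vitellogenin at B2. The fertile REC8 libraries of A1 overlapped those of A2, B1 and B2, so no order in time is read from this. At C2 the fertile libraries thus held 579, 1113 and 438 normalized counts of REC8 beside 82.7, 26.7 and 25.6 of tsk-1. Other oocyte and follicle markers did rise from C1 to C2 in fertile animals, as REC8 did. On the common scale the mean of zp-1 (Bot_c16824) went from 112 to 512, a ratio of 4.57, and was highest at C2. That of ldlr (Bot_rep_c45532) went from 598 to 760, a ratio of 1.27.

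Germ cell transcripts were present in both groups. The summed level of vasa, nanos and 2 piwi contigs ranged from 1745 to 10474 in the 21 fertile libraries and from 428 to 3602 in the infertile ones, and the infertile libraries with these transcripts had a median of 64.9 for REC8. At A1, where the fertile to infertile ratio of REC8 was 37.4, that of vasa (CAP3_round1_contig_8235), a helicase of germ cells, was 3.48, with a log2 difference of 1.89 (SE 0.76, limma adjusted p = 0.72). Nanos (Bot_c494), a translational repressor of germ cells, was called higher at A1, with a ratio of 9.71 and a log2 difference of 3.34 (SE 0.46, limma adjusted p = 0.035). The paper, which used DESeq at a 10% FDR, reports no significant difference between the groups for vasa, nanos and piwi, so the nanos call departs from it. The sums of the 4 sperm markers ranged from 120 to 8124 in fertile and from 22.9 to 2125 in infertile libraries, and those of the 3 oocyte and follicle markers from 129 to 81741 and from 11.2 to 697. The highest sum of each list was in a fertile library, as the highest REC8 level was, although at C2 the sum of sperm markers was higher in infertile library 1 than in the fertile libraries, which had between 120 and 443. The part of these markers in the REC8 difference was not tested.

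The infertile library with the most REC8 was compared with the list at each stage. At A2 and B1, infertile libraries 3 and 2 were the highest for REC8 and for 9 and 10 of 26 list contigs, beside 30.9% and 30.8% of all contigs tested. At A1, infertile library 3 was so for 15 of 25 list contigs and 33.9% of all. At B2, C1 and C2, infertile library 1 was the highest infertile library for REC8 and for 16, 21 and 19 of 26 list contigs, and at D infertile library 2 was so for REC8 and 14 of 26. Over all contigs tested these libraries were the highest of the 3 for 33.9%, 33.5%, 35.2% and 32.4%. In infertile library 1 at C1, tsk-1 stood at 719 and cyclin A1 at 547, against at most 11.1 and 10.8 in the other infertile libraries of the stage. At D, infertile library 2 had 259 of REC8, 131 of SYCP3 (CAP3_round1_contig_7602) and 197 of boule-like, with tsk-1 at 18.5. The part of these libraries' germ cell and sperm transcripts in their REC8 level was not tested.

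The contigs most like REC8 were found by the correlation of log2(normalized count + 1) over the 42 libraries, among 37831 other contigs. The libraries share their stage and group, so the correlations mostly hold the difference between fertile and infertile animals and are given as a description. The highest was HORMAD2 with r = 0.97 (Spearman's rho 0.95). The SYCP3 contigs CAP3_round1_contig_7602 and Bot_rep_c51033 had r = 0.96 each and boule-like r = 0.95, all of them among the 10 highest. The median over all contigs was 0.01 and that over the 24 list contigs 0.69, and 261 contigs in all and 11 of the list exceeded 0.8.

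The other 6 of the 10 nearest contigs carry names with no meiotic role. CAP3_round1_contig_3832 (r = 0.97) and CAP3_round1_contig_1394 (r = 0.95) are annotated as brain-specific angiogenesis inhibitor 3 and hemicentin-1 in human and share their Ciona hit. Bot_rep_c50436 (r = 0.96) is annotated as fukutin, a glycosylation enzyme, and Bot_rep_c44885 (r = 0.96) as a beta-actin-like protein. Bot_c2465 (r = 0.96) is annotated as multidrug resistance protein 1, a membrane exporter, and Bot_c20162 (r = 0.95) as serine/threonine-protein phosphatase 5. Contigs of large families such as actin can share reads with their relatives, which leaves their values uncertain.

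Within the 21 fertile libraries alone, the likeness of the axis genes to REC8 remained high. r was 0.97 for both SYCP3 contigs among the nearest 10, 0.91 for the SYCP3 contig Bot_c2651 and 0.96 for HORMAD2. Of the list contigs with other roles, DMC1 had r = 0.95 and speedy A 0.93. Over the same libraries r ran from 0.12 (tsk-1) to 0.50 (tsk-6) for the sperm markers. For the oocyte and follicle markers it ran from -0.29 (vitellogenin) to -0.02 (zp-1). Among the germ cell markers it was 0.74 for nanos, 0.44 for vasa and 0.38 and 0.04 for the piwi contigs. It was 0.41 for SMC1A and 0.54 for cyclin A1. Within the 21 infertile libraries, where counts of REC8 were low, r was 0.83 for HORMAD2 and 0.83 for boule-like and 0.41 for DMC1. Contigs with no meiotic name followed REC8 about as closely among fertile libraries, with r = 0.96 for the fukutin contig Bot_rep_c50436, 0.93 for CAP3_round1_contig_3832, 0.92 for the actin-like Bot_rep_c44885 and 0.90 for Bot_c20162. Among infertile libraries r was 0.90 for Bot_c2465, 0.86 for CAP3_round1_contig_3832 and 0.85 for Bot_rep_c44885 and CAP3_round1_contig_1394, above HORMAD2. It was 0.83 for Bot_rep_c50436 and Bot_c20162, and between 0.74 and 0.79 for the SYCP3 contigs. For the sperm markers it ran from 0.41 (tsk-1) to 0.78 (tsk-6) in the infertile libraries, and it was 0.71 for vasa and 0.70 for nanos.

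**Figure D4:**
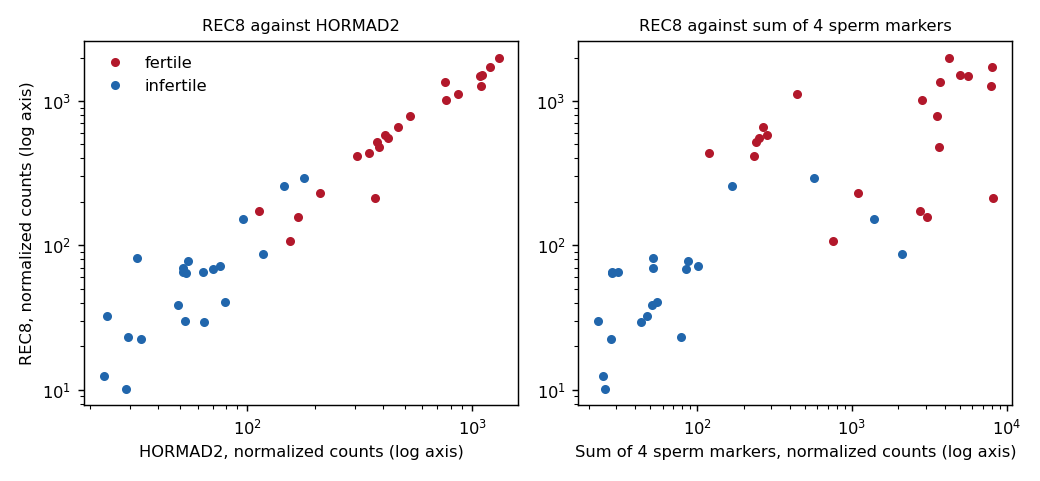
REC8 against HORMAD2 (left) and against the sum of 4 spermatid and sperm markers (right) in the 42 libraries, as normalized counts within each stage on log axes, with 1 point per library. REC8 rises with HORMAD2 over fertile and infertile libraries, and at right several fertile libraries have REC8 between 416 and 1113 with sums of sperm markers between 120 and 443.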

How the data were processed

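The authors trimmed the first bases of the paired reads and aligned them with Bowtie 0.12.7 to contigs of an EST assembly. Sam2Counts gave the reads of each contig, and DESeq 1.10.1 was used for each stage (versions from the submitters' processing notes and methods). The authors deposited 1 table per stage. Its signal columns are group means of normalized counts, in which each read pair counts as 2. The other columns hold the authors' fold changes and p-values and were not used.

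In each group mean, the read pairs of the 3 libraries enter as whole numbers of a step particular to the library. The steps were found and every group mean up to 6000 was solved for its 3 counts. Between 98.6% and 99.3% of contigs per column had a single solution. None had several, and 0 of 42000 decoy values were solved. The more abundant contigs, with 53.7% to 76.9% of the mean total, were not solved, other than listed ones. Size factors recomputed by the median of ratios were 0.991 to 1.01 times those recovered. All 20000 of 20000 simulated contigs were solved correctly.

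limma 3.58.1 in R 4.3.3 was run per stage on log2(normalized count + 1). Contigs needed a mean of 10 or more, with Benjamini-Hochberg adjustment at 10% FDR. limma was tested on simulated data of 38196 contigs at A1. Among 100 contigs made to differ 8-fold it found 79, and among 100 made to differ 30-fold all 100. It called 11 contigs with no difference. The simulation gave all contigs the same dispersion and changed only contigs with a mean of 30 or more. Its rates need not hold for the measured data. The 3 libraries of a group are from different genotypes or a mix of them, with 1 library each per stage. In fits over all stages, libraries of 1 genotype count as independent. Levels are not per contig length and are compared within a contig.

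REC8, the lists and the rules were chosen with earlier results of these data known. The contigs named are REC8, those of the 26 list contigs, of which 1 is counted but not reported here, 11 markers, and the 10 contigs with the highest Pearson correlation with REC8. Alternatives covered the pseudocount, the filter, upper quartile scaling, a fit over 42 libraries and leaving out each library.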

Additional observations from a re-analysis of the deposited data

How the results depend on the processing

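The REC8 ratios kept their direction under every alternative run. The pseudocount and upper quartile scaling moved them by less than their error, and the ratio of the highest to the lowest fertile stage, 8.20, was 8.02 with upper quartile scaling and 8.52 on the deposited scale, with A1 highest and C1 lowest each time. Leaving out each library gave ratios of 27.9 to 57.2 at A1, 11.5 to 24.0 at A2, 18.7 to 31.1 at B1, 1.25 to 7.31 at B2, 1.85 to 5.54 at C1, 10.2 to 22.5 at C2 and 3.52 to 11.6 at D.

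Leaving out each library gave 3 to 9 list calls at A1, 0 to 4 at A2, 2 to 8 at B1, 0 to 3 at C2, 0 to 3 at D and none at B2 and C1. All were higher in fertile animals but the SMC2 contig, called lower at C2 without infertile library 1 and at D without infertile library 3. All calls, 480, 0, 487, 3, 0, 0 and 11 from A1 to D, then ranged over 236 to 683, 0 to 289, 205 to 934, 0 to 53, 0 to 4, 0 to 249 and 0 to 657. With a pseudocount of 5 there were 6 calls at B2, 6 at C2 and 26 at D, and with upper quartile scaling 0 at B2. In 1 fit over all 42 libraries, 14 list contigs were called at A1, 10 at A2, 12 at B1, 5 at C2 and 1 at D. All contigs called in that fit were 647, 407, 649, 232, 12, 52 and 24 from A1 to D. The causes were not tested.

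No paired analysis was possible because the deposited tables name no library, and the numbers given here to recovered libraries are not shared between groups or stages. With 3 libraries a group, few read pairs in infertile libraries (6 at the lowest) and 40 pairs in fertile library 3 at C1 limit the precision of REC8.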

Other observations

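The SMC2 contig Bot_rep_c35801 of the meiosis list, named after a condensin subunit, varied between libraries of 1 group more than it differed between groups. In the infertile libraries it had 1704, 807 and 0 normalized counts at B1 and 2.69, 3661 and 495 at C1. In the fertile libraries it had 3502, 13.7 and 0 at B2 and 1.41, 14.5 and 2206 at C1. Its correlation with REC8 over the 42 libraries was r = -0.47, and with all libraries it was not called at any stage.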
